A study of Mus musculus with 14 samples.

Results

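The 38 genes described here encode factors that end transcripts made by RNA polymerase II: the cleavage and polyadenylation machinery, the torpedo exonuclease, proteins that bind the polymerase tail, and the Integrator complex. They were taken from a list of gene symbols and matched by gene identifier, and all 38 were found among the 21761 genes of the exon count tables. All 38 passed the filter on low counts, and they are 38 of the 13817 genes tested over exons. Of these 38 genes, 37 also have intron counts, and Cstf2t, annotated with 1 exon, has none.

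The study compared primary mouse bone marrow-derived macrophages (BMDM) carrying a short hairpin against Wdr82 with cells carrying a scrambled hairpin. Wdr82 is a subunit of SET1 histone methyltransferase complexes and of a PP1 phosphatase complex that acts on the transcription machinery. The knockdown group held 1 library with hairpin sh1137 and 1 with hairpin sh830, and the control group held scrambled libraries 1 and 2. All 4 were untreated cells of strain FVB/Hsd on day 7 of differentiation, infected with viral supernatants from packaging cells and selected with puromycin, and their ribosomal RNA-depleted total RNA was sequenced. Animal age is not given in the sources used here, and nothing in them says that the libraries came from separate animals or cultures. The p-values thus cover these libraries only, and the part of their spread that is measured is given below. The other 10 samples of the series were not analysed here. Below, the values of each group are in the order sh1137, sh830 for the knockdown libraries and 1, 2 for the scrambled libraries.

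When RNA polymerase II passes a polyadenylation signal, the cleavage and polyadenylation specificity factor (CPSF) recognises the signal and cuts the nascent RNA, helped by cleavage factors I and II and by the cleavage stimulation factor (CstF). A poly(A) polymerase then adds the tail, while the exonuclease Xrn2 degrades the RNA still attached to the polymerase and helps to dislodge it. Integrator, another endonuclease complex with a similar catalytic pair, ends small nuclear RNAs, enhancer RNAs and many transcripts that stop soon after they start.

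Exon counts summed to 34787556 and 43372731 in the knockdown libraries and to 40074419 and 42635790 in the scrambled libraries, and a single gene of the list held between 517 and 11585 exon counts per library. Wdr82 itself had 25.2 and 40.4 CPM (counts per 1000000 exon counts) in the knockdown libraries, against 98.0 and 148 CPM in the scrambled libraries, a log2 fold change of -1.92 ± 0.088 (SE; adjusted p = 0.0042, edgeR quasi-likelihood test). The libraries also fell into 2 kinds within each group. Introns held 44.2% and 15.2% of gene counts in the knockdown libraries, and 40.4% and 14.6% in the scrambled libraries, so sh1137 and scrambled 1 were intron-rich, and sh830 and scrambled 2 were intron-poor. The tests therefore carried a term for this split, a choice made with earlier results of these data known. With it, the error behind each p-value is the disagreement between sh1137 over scrambled 1 and sh830 over scrambled 2, moderated across genes. The spread between the 2 kinds of library is left out of that error. For Scaf4, 1 of the 38 genes, the SE over exons was 0.091 with the term and 0.72 without it. Without that term, edgeR called 0 genes at an adjusted p under 0.05 over exons and Wdr82 itself did not pass (adjusted p = 0.43), although 423 genes were higher and 196 lower at an unadjusted p below 0.05. Every gene call below depends on that term. Fits with 1 library left out can carry the group term alone, under which none of the 38 genes passed with all 4 libraries. Those fits thus cannot tell whether a call rests on 1 library. Macrophage markers were abundant, with 9 markers summing to 8767 and 15168 CPM in the knockdown libraries and to 10073 and 12631 CPM in the scrambled libraries, while Fcgr1 and Cd68, 2 of these 9, were called lower over exons with knockdown, as was Cd14 over introns. The 6 fibroblast and stromal markers summed to 1.87 and 109 CPM in the knockdown libraries and to 1.00 and 34.2 CPM in the scrambled libraries. Of these 6, Col1a1 was called higher, with 0.776 and 52.8 CPM in the knockdown libraries, against 0.0955 and 9.54 CPM in the scrambled libraries (log2 fold change 2.53 ± 0.19 (SE), adjusted p = 0.0080, edgeR). Markers of 7 other blood cell types summed to at most 11.7 CPM per cell type in any library. Among them the platelet gene Ppbp was called higher, with 8.70 and 6.29 CPM in the knockdown libraries, against 0.955 and 0.439 CPM in the scrambled libraries (log2 fold change 3.47 ± 0.31 (SE), adjusted p = 0.0093, edgeR). Lck (T cells, 1.86 ± 0.34) and Xcr1 (dendritic cells, 1.48 ± 0.29) were called higher over exons (log2 fold change ± SE, adjusted p = 0.031 and 0.035, edgeR), and Ms4a1 (B cells, 2.80 ± 0.55) and Lck over introns (adjusted p = 0.0086 and 0.041, edgeR). Pax5, Pf4, Hba-a2, Hbb-b1 and Fcer1a were at 0 counts in all 4 libraries. The part of other cells in the results below was not tested. In bulk RNA, fewer cells of a type and less RNA per cell cannot be told apart.

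Exon counts of 4 of the 38 genes, Cpsf3, Ints11, Cstf2 and Papola, fell with Wdr82 knockdown, and 0 of 38 rose. Among all genes tested, 7.45% were called lower and 5.57% were called higher, so the 10.5% of these genes called lower is near the background. The fitted log2 fold change was below 0 for 31 of 38 genes (81.6%), against 52.4% of all genes tested. Its median was -0.16 over the 38 genes and -0.022 over all genes, and single values ran from -0.56 for Cpsf3 to 0.54 for Ints3. Both knockdown libraries lay below both scrambled libraries in 14 of 38 genes, against 15.8% of all genes, and above both in 5 of 38, against 15.3% of all genes. The 5 above were Pcf11, Rprd1a, Rprd1b, Ints3 and Ints6, and in the other 19 genes the groups overlapped. At an unadjusted p under 0.05, the split term left 14 of the 38 lower and 2 higher, against 18.6% and 13.6% of all genes, and the group term alone left 0 of either. The shares over all genes were not matched for expression, and 32 of the 38 genes stood above the median level of all genes tested.

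**Figure D1:**
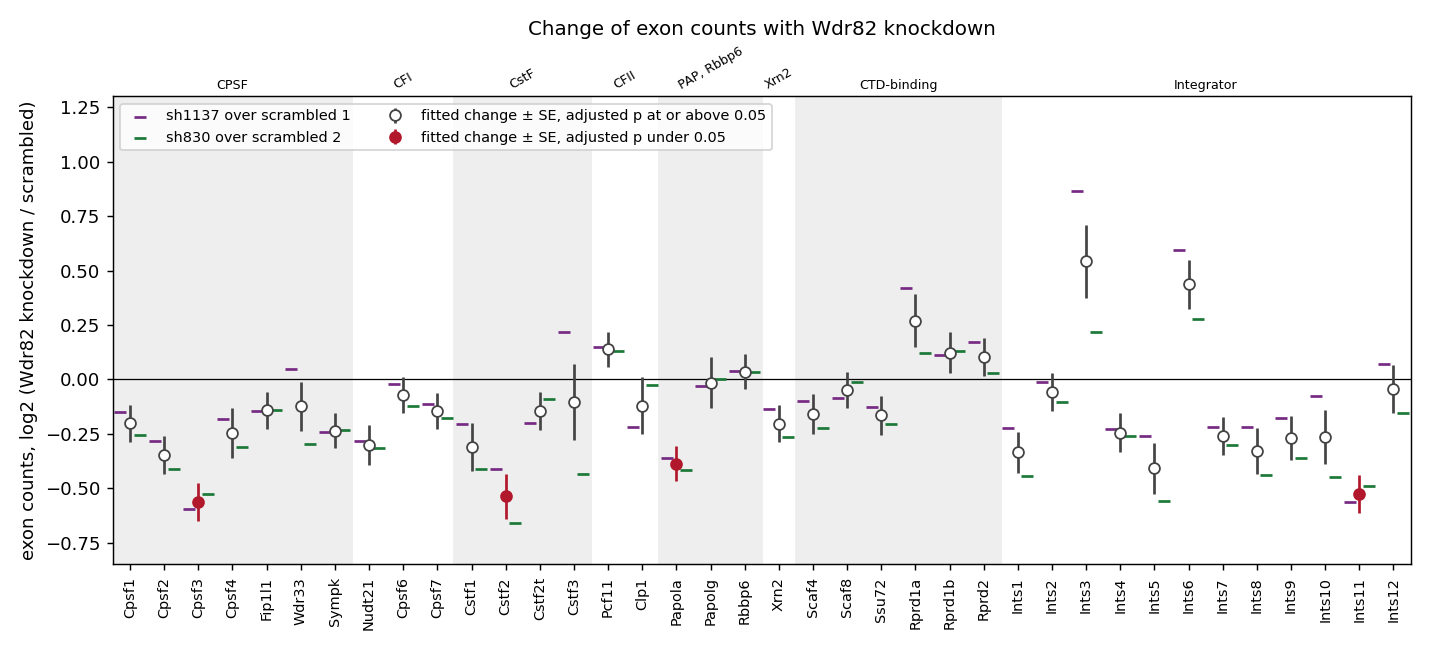
Log2 fold change of exon counts with Wdr82 knockdown for the 38 genes, in order of complex. Circles are the fitted change with its standard error, filled where the adjusted p was under 0.05, and the dashes are sh1137 over scrambled 1 and sh830 over scrambled 2. The 4 filled circles lie between -0.56 and -0.39, and 31 of the 38 circles lie below 0.

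The same direction was seen within both kinds of library. Compared with scrambled 1, sh1137 had a median log2 difference of -0.14 over the 38 genes and -0.0057 over all genes. Compared with scrambled 2, sh830 had a median of -0.24 over the 38 genes and -0.056 over all genes. Both differences were below 0 in 27 of 38 genes (71.1%), against 40.5% of all genes. Both were above 0 in 7 genes (18.4%), against 34.5% of all genes, and in 4 genes the 2 differences had opposite signs.

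Both endonucleases, Cpsf3 and Ints11, were among the genes called lower. Cpsf3 is the subunit of CPSF that cuts the pre-mRNA, and Ints11 is its counterpart in Integrator. Each works with a related, catalytically inactive partner, Cpsf2 and Ints9. Cpsf3 (gene 54451; mm9 chr12:21292158-21320917, plus strand) had 45.0 and 56.7 exon CPM in the knockdown libraries, against 68.0 and 81.7 CPM in the scrambled libraries. Its means were 50.8 ± 8.25 CPM with knockdown and 74.8 ± 9.70 CPM with the scrambled hairpin (SD, n = 2 each), and the groups did not overlap. The log2 fold change was -0.56 ± 0.087 (SE; adjusted p = 0.023, edgeR; 0.77 without the split term).

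Ints11 (gene 71957; mm9 chr4:155243676-155263212, plus strand) had 43.5 and 55.3 exon CPM in the knockdown libraries, against 64.2 and 77.7 CPM in the scrambled libraries. Knockdown averaged 49.4 ± 8.38 CPM and the scrambled group 71.0 ± 9.53 CPM (SD, n = 2 each), again without overlap. Ints11 had a log2 fold change of -0.53 ± 0.088 (SE; adjusted p = 0.026, edgeR; 0.80 without the split term). The partners had values in the same direction that did not pass the test, with log2 fold changes of -0.35 ± 0.086 for Cpsf2 (adjusted p = 0.055, and 0.049 without the filter on low counts) and -0.27 ± 0.10 for Ints9 (adjusted p = 0.13, edgeR). In both partners the knockdown libraries lay below the scrambled libraries. Ints11 shares part of its span with Pusl1, a gene whose own exon change was -0.18 ± 0.15 and did not pass (adjusted p = 0.45, edgeR).

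Promoter sequences are shown for the 4 genes called over exons and for Ints3 and Ints6, the 2 called higher over introns below. Each runs 5′ to 3′ along the gene's strand, with 250 bases before and 50 after the annotated start, and comes from RefSeq on build GRCm38.p6 rather than the mm9 build of the counts. Capitals mark matches, on either strand, to 6 motifs: the TATA box TATAAA, the NF-Y motif CCAAT, the SP/KLF motif GGGCGG, the ETS motif CCGGAA, the CREB/ATF motif TGACGTCA and the YY1 motif AAGATGGC.
Cpsf3 (chr12:21286047-21286346, plus strand): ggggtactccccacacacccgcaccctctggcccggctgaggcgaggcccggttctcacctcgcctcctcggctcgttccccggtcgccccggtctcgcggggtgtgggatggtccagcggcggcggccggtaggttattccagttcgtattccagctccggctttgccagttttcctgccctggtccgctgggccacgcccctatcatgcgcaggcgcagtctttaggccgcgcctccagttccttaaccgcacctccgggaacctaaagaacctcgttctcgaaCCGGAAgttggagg
Ints11 (chr4:155869317-155869616, plus strand): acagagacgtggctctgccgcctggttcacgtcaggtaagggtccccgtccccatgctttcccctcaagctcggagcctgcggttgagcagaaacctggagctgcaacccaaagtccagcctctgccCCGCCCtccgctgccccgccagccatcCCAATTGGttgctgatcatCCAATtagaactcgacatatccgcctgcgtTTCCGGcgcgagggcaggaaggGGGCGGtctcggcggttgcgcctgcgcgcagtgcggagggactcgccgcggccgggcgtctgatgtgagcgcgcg
Cstf2 (chrX:134058926-134059225, plus strand): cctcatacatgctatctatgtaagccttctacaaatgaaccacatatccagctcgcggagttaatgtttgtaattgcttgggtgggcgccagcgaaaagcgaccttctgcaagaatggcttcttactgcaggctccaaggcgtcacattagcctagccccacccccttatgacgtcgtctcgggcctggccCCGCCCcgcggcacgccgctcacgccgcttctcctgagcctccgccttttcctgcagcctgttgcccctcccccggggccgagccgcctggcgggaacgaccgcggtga
Papola (chr12:105784447-105784746, plus strand): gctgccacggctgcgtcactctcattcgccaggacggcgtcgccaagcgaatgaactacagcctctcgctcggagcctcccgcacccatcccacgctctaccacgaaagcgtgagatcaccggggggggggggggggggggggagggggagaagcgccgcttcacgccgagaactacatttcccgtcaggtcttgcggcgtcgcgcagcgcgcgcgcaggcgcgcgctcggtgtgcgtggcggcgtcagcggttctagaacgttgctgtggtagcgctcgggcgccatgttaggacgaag
Ints3 (chr3:90433587-90433886, minus strand): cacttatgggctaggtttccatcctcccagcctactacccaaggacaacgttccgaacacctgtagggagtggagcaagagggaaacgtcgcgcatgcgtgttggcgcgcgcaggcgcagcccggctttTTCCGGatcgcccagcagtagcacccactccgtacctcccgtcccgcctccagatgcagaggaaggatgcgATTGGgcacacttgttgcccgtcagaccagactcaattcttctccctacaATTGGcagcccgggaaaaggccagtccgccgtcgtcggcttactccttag
Ints6 (chr14:62761063-62761362, minus strand): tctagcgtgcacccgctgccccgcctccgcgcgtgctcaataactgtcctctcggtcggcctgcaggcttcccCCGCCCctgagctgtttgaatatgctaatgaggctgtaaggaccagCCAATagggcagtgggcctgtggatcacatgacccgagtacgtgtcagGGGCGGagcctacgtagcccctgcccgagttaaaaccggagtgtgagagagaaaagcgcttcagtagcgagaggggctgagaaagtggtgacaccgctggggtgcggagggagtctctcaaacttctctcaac

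None of these 6 windows held TATAAA, TGACGTCA or AAGATGGC, and the Papola window held none of the 6 motifs. CCGGAA was found once each in the Cpsf3, Ints11 and Ints3 windows. In Cpsf3 it lay at position 37 after the start, counted from 1 at the start. CCAAT had 3 matches in Ints11, of which 2 overlap on opposite strands, 2 in Ints3 and 1 in Ints6. GGGCGG had 2 matches each in Ints11 and Ints6 and 1 in Cstf2. Of the 38 genes, 31 had an entry in the promoter table. CCGGAA occurred in 15 of these 31, against 14.9% of all 32851 promoters of the same length, and GGGCGG in 18 of 31, against 35.7% of all promoters. CCAAT occurred in 14 of 31 (37.4% of all promoters), TATAAA in 0 of 31 (13.6%), TGACGTCA in 1 of 31 (1.79%) and AAGATGGC in 2 of 31 (2.75%). The shares over all promoters include genes not tested here and were not matched for expression, so they are no measure of enrichment. These matches describe the letters only.

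All 7 CPSF genes had a fold change below 0 over exons, with a median of -0.24, and Cpsf3 alone passed the test. Wdr33, which with Cpsf4 reads the polyadenylation signal, was at the other end of the complex. It had 121 and 87.3 exon CPM in the knockdown libraries, against 117 and 107 CPM in the scrambled libraries, so the groups overlapped and the log2 fold change was -0.12 ± 0.11 (SE; adjusted p = 0.48, edgeR). The scaffold Sympk, which links CPSF to CstF, had 206 and 185 exon CPM in the knockdown libraries, against 243 and 217 CPM in the scrambled libraries. These values did not overlap, but the log2 fold change of -0.24 ± 0.080 did not pass (SE; adjusted p = 0.11, edgeR). Cpsf1, a scaffold subunit, Cpsf4 and Fip1l1, which holds the poly(A) polymerase, had log2 fold changes between -0.25 and -0.14 and adjusted p-values of 0.16 or more.

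Of the 4 CstF genes, all had values below 0 (median log2 fold change -0.23), and Cstf2 passed. Cstf2 encodes the subunit that binds the GU-rich element downstream of the cleavage site. Cstf2 (gene 108062; mm9 chrX:130593888-130621360, plus strand) had 47.6 and 54.2 exon CPM in the knockdown libraries, against 63.3 and 85.7 CPM in the scrambled libraries. Its means were 50.9 ± 4.65 CPM with knockdown and 74.5 ± 15.8 CPM with the scrambled hairpin (SD, n = 2 each), and the groups did not overlap. The log2 fold change was -0.54 ± 0.10 (SE; adjusted p = 0.033, edgeR; 0.79 without the split term). The intronless paralog Cstf2t, which lies within the span of Prkg1, had 49.1 and 73.9 exon CPM in the knockdown libraries, against 56.5 and 78.7 CPM in the scrambled libraries. Those groups overlapped (log2 fold change -0.14 ± 0.089 (SE), adjusted p = 0.31, edgeR). How reads matching both Cstf2 and Cstf2t were counted is not given in the sources used here. Cstf3, the scaffold of CstF, differed in opposite directions in the 2 kinds of library. It had 43.3 and 22.5 exon CPM in the knockdown libraries, against 37.2 and 30.4 CPM in the scrambled libraries (log2 fold change -0.10 ± 0.18 (SE), adjusted p = 0.71, edgeR). Cstf1 had a log2 fold change of -0.31 ± 0.11 (SE; adjusted p = 0.12, edgeR).

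Papola, the main nuclear poly(A) polymerase, was also lower. Papola (gene 18789; mm9 chr12:107022912-107077153, plus strand) had 199 and 225 exon CPM in the knockdown libraries, against 255 and 299 CPM in the scrambled libraries. Knockdown averaged 212 ± 18.5 CPM and the scrambled group 277 ± 31.6 CPM (SD, n = 2 each), with no overlap. Papola thus had a log2 fold change of -0.39 ± 0.081 (SE; adjusted p = 0.039, edgeR; 0.91 without the split term). With exon and intron counts summed, Papola no longer passed (log2 fold change -0.28). Its paralog Papolg had 22.2 and 17.1 exon CPM in the knockdown libraries, against 22.7 and 17.1 CPM in the scrambled libraries (log2 fold change -0.015 ± 0.12 (SE), adjusted p = 0.94, edgeR). For Rbbp6, an activator of the cleavage reaction, the values were 151 and 102 exon CPM in the knockdown libraries, against 147 and 99.8 CPM in the scrambled libraries (log2 fold change 0.036 ± 0.081 (SE), adjusted p = 0.78, edgeR). In both Papolg and Rbbp6 the intron-rich libraries were higher than the intron-poor libraries of the same group, and the groups overlapped.

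No gene of cleavage factors I and II passed over exons. Nudt21, the cleavage factor I subunit that binds UGUA elements, had 30.4 and 50.0 exon CPM in the knockdown libraries, against 37.0 and 62.3 CPM in the scrambled libraries (log2 fold change -0.30 ± 0.092 (SE), adjusted p = 0.086, edgeR). Its larger partner Cpsf6 had 164 and 148 exon CPM in the knockdown libraries, against 166 and 161 CPM in the scrambled libraries (log2 fold change -0.072 ± 0.083 (SE), adjusted p = 0.58, edgeR). The alternative partner Cpsf7 had 89.9 and 54.8 exon CPM in the knockdown libraries, against 97.4 and 61.8 CPM in the scrambled libraries (log2 fold change -0.14 ± 0.084 (SE), adjusted p = 0.28, edgeR). The spread between library kinds exceeded the difference between hairpins in Nudt21 and Cpsf7. Of cleavage factor II, Pcf11, which bridges RNA and the polymerase tail, had 112 and 105 exon CPM in the knockdown libraries, against 101 and 96.2 CPM in the scrambled libraries. These values did not overlap (log2 fold change 0.14 ± 0.081 (SE), adjusted p = 0.29, edgeR). The RNA kinase Clp1 had 13.8 and 19.6 exon CPM in the knockdown libraries, against 16.1 and 20.0 CPM in the scrambled libraries (log2 fold change -0.12 ± 0.13 (SE), adjusted p = 0.55, edgeR).

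Xrn2 and the proteins that bind the C-terminal domain (CTD) of the polymerase did not pass either. Xrn2 had 171 and 202 exon CPM in the knockdown libraries, against 188 and 243 CPM in the scrambled libraries (log2 fold change -0.20 ± 0.085 (SE), adjusted p = 0.16, edgeR). Within each kind of library the knockdown value was the lower one, but the groups overlapped. Among the 6 CTD-linked genes, 3 were below 0 and 3 above. Rprd1a, a CTD-binding scaffold, had 30.0 and 29.9 exon CPM in the knockdown libraries, against 22.4 and 27.6 CPM in the scrambled libraries. That was the largest value of the 6, without overlap (log2 fold change 0.27 ± 0.12 (SE), adjusted p = 0.19, edgeR), and reads could be shared with its paralog Rprd1b. Ssu72, a CTD phosphatase, had 43.1 and 66.5 exon CPM in the knockdown libraries, against 47.0 and 76.6 CPM in the scrambled libraries (log2 fold change -0.16 ± 0.089 (SE), adjusted p = 0.25, edgeR). Rprd1b, Rprd2, Scaf4 and Scaf8 lay between -0.16 and 0.12. Scaf4, which in human cells restrains early polyadenylation together with Scaf8, had 87.8 and 28.6 exon CPM in the knockdown libraries, against 93.9 and 33.4 CPM in the scrambled libraries. Its level thus followed the kind of library far more than the hairpin.

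Of the 12 Integrator subunits in the list, 10 had a fold change below 0, and Ints3 and Ints6 had one above it. The subunits Ints13 and Ints14 are outside the list, with exon log2 fold changes of 0.015 ± 0.12 and -0.24 ± 0.092 (SE). Ints13 was called higher over introns, as given below. The median over the 12 was -0.26, and Ints11 alone passed over exons. Ints3 is shared with the SOSS complex that binds single-stranded DNA, and Ints6 links Integrator to the phosphatase PP2A. Ints3 (gene 229543; mm9 chr3:90195310-90237558, minus strand) had 143 and 91.7 exon CPM in the knockdown libraries, against 78.4 and 79.0 CPM in the scrambled libraries. Both knockdown libraries were higher than both scrambled libraries, and sh1137 stood well above sh830. The means were 117 ± 36.3 CPM with knockdown and 78.7 ± 0.416 CPM with the scrambled hairpin (SD, n = 2 each). The log2 fold change of 0.54 ± 0.17 did not pass in edgeR (SE; adjusted p = 0.086), while DESeq2 with the same terms gave an adjusted p of 0.018.

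Ints6 (gene 18130; mm9 chr14:63295165-63379949, minus strand) had 61.1 and 52.5 exon CPM in the knockdown libraries, against 40.5 and 43.3 CPM in the scrambled libraries. The groups did not overlap, and the log2 fold change was 0.44 ± 0.11 (SE; adjusted p = 0.062, edgeR, and 0.049 without the filter on low counts). For Ints4, which holds the Ints9 and Ints11 pair, exon CPM were 41.4 and 49.6 in the knockdown libraries, against 48.6 and 59.3 in the scrambled libraries (log2 fold change -0.24 ± 0.090 (SE), adjusted p = 0.13, edgeR). Of the 7 listed subunits not yet described, none passed, and their log2 fold changes ran from -0.41 ± 0.12 for Ints5 (SE; adjusted p = 0.073, edgeR) to -0.043 ± 0.11 for Ints12 (SE; adjusted p = 0.81, edgeR). Ints12 and Ints2, at -0.058 ± 0.088 (SE), lay within 1 SE of 0. Ints1, a large scaffold subunit, was at -0.33 ± 0.094 (SE; adjusted p = 0.072, edgeR).

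Introns were counted separately, and reads there come mostly from RNA not yet spliced. Over introns, 2 of 37 genes were called higher, against 8.21% of all 12319 genes tested, and 2 of 37 were called lower, against 7.17%. The called genes were Ints6 and Ints3, higher, and Cstf2 and Ints4, lower. Without the split term 0 genes were called over introns, although the unadjusted p was below 0.05 for 548 genes with higher and 157 with lower counts. Both knockdown libraries lay above both scrambled libraries in 2 of 37 genes (16% of all genes) and below both in 8 of 37 (15.2% of all genes). The median log2 fold change over introns was -0.12 for the 37 genes and -0.035 for all genes. The fold change was below 0 in 24 of the 37 (64.9%), against 54.3% of all genes. When intron counts were scaled with the factors from exon counts, the median of all genes shifted by 0.13, 84.2% of called genes were higher in place of 53.4%, the median of the 37 genes stood at 0.0052 and 18 of them were below 0. Ints6 and Ints3 were then called higher and none lower. The median of all genes was 0.094 under those factors, so that of the 37 genes was still the lower one.

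Ints6 had the largest intron change, with 119 and 77.0 intron CPM in the knockdown libraries, against 59.8 and 50.7 CPM in the scrambled libraries. It averaged 98.1 ± 29.9 CPM with knockdown and 55.3 ± 6.45 CPM with the scrambled hairpin (SD, n = 2 each). The log2 fold change was 0.81 ± 0.12 (SE; adjusted p = 0.00195, edgeR; 0.78 without the split term). Within the kinds of library, the log2 difference was 1.00 in the intron-rich pair and 0.60 in the intron-poor pair. Serpine3 overlaps the Ints6 span, and how reads in the overlap were assigned is not given in the sources used here.

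Ints3 had 53.1 and 35.1 intron CPM in the knockdown libraries, against 30.7 and 25.1 CPM in the scrambled libraries, with no overlap. Its log2 fold change over introns was 0.66 ± 0.13 (SE; adjusted p = 0.010, edgeR; 0.92 without the split term). Ints4 (gene 101861; mm9 chr7:104629466-104689908, plus strand) went the other way, with 49.9 and 38.4 intron CPM in the knockdown libraries, against 68.2 and 55.5 CPM in the scrambled libraries. Its log2 fold change over introns was -0.49 ± 0.11 (SE; adjusted p = 0.017, edgeR; 1.00 without the split term). Cstf2 had 24.5 and 22.3 intron CPM in the knockdown libraries, against 32.2 and 36.0 CPM in the scrambled libraries. Its log2 fold change was -0.53 ± 0.14 (SE; adjusted p = 0.032, edgeR; 0.90 without the split term), and Cstf2 was the 1 gene called over both exons and introns. With DESeq2 and the split term, Ints6 was the 1 gene of the 37 still called over introns.

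**Figure D2:**
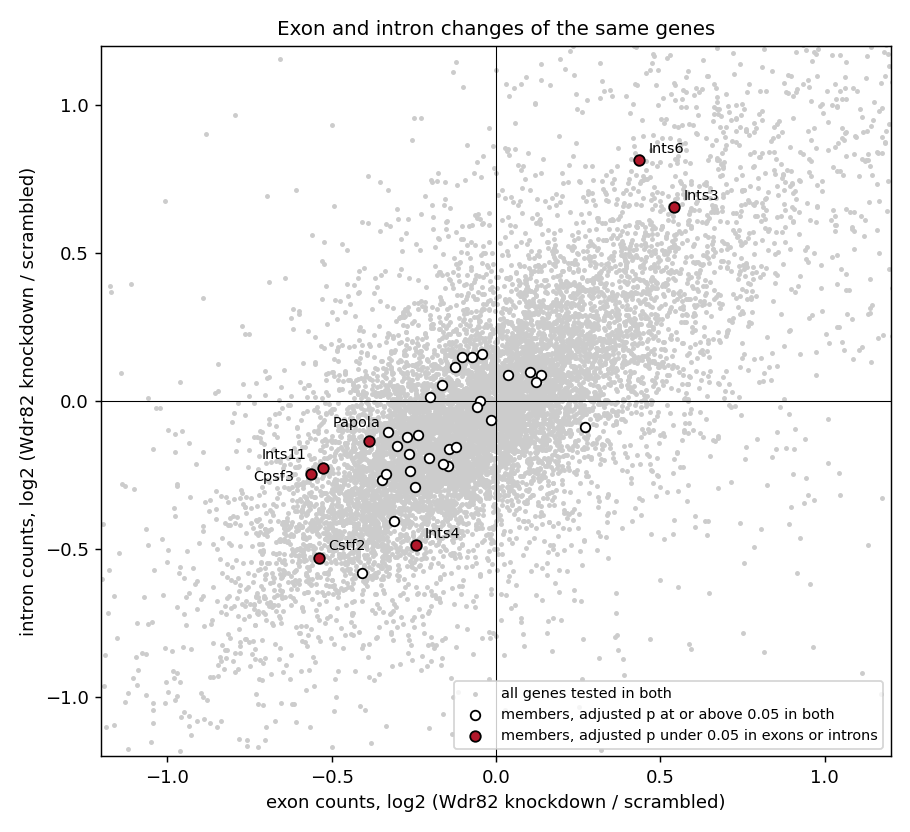
Log2 fold change with Wdr82 knockdown over exons (horizontal) and introns (vertical) for genes tested in both; genes beyond 1.2 on either axis are not drawn. The 7 filled and named points passed an adjusted p of 0.05 over exons or introns, and Ints3 and Ints6 stand at the upper right, apart from Cstf2 and Ints4 at the lower left.

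The intron and exon changes of each gene were then compared in 1 fit. No gene of the 37 passed that test (smallest adjusted p = 0.19, edgeR), against 0.931% of 11702 genes called higher and 0.726% called lower. With exon factors for both tables, which moved the median of all genes by 0.13 and made 90.2% of called genes higher in place of 56.2%, Ints6 and Cpsf3 passed (adjusted p = 0.024 and 0.049, edgeR). At an unadjusted p under 0.05, the intron change lay above the exon change in 5 of the 37 genes and below it in 1, against 6.57% and 7.2% of all genes. The 5 were Ints6, Cpsf3, Ints11, Papola and Wdr33, with log2 differences between the intron and exon change of 0.37 ± 0.13, 0.32 ± 0.13, 0.31 ± 0.14, 0.25 ± 0.10 and 0.23 ± 0.10 (SE). For Cpsf3 this rests on an intron change of -0.25 ± 0.10 beside an exon change of -0.56 ± 0.087 (SE). The 1 gene in the other direction was Rprd1a, with a difference of -0.37 ± 0.14 (SE; adjusted p = 0.20, edgeR).

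Introns held 50.4% and 23.5% of the summed counts of the 37 genes in the knockdown libraries, against 45.5% and 21.1% in the scrambled libraries. The share was higher in sh1137 than in scrambled 1 for 35 of 37 genes, and higher in sh830 than in scrambled 2 for 28 of 37. The same count was not made over all genes, so it is not known to be particular to this list. Over all genes tested in both, the summed share was 45.6% and 15.9% in the knockdown libraries and 41.5% and 15.2% in the scrambled libraries. The knockdown libraries thus had the higher share there too. The median share per gene was 43.9% and 21.7% with knockdown against 39.2% and 20.2% over the 37 genes. Over all genes it was 42.8% and 19.2% against 39.2% and 18.6%. Cpsf3 had an intron share of 48.2% (95% Wilson interval 46.5 to 49.9) and 21.3% (19.9 to 22.8) in the knockdown libraries, against 37.7% (36.3 to 39.1) and 18.6% (17.4 to 19.8) in the scrambled libraries. Ints6 had 55.9% (54.6 to 57.3) and 24.0% (22.5 to 25.5) in the knockdown libraries, against 44.7% (43.0 to 46.5) and 20.2% (18.5 to 21.9) in the scrambled libraries. These intervals cover counting error only. Scaf4 differed little between the kinds of library, with 63.2% and 58.1% in the knockdown libraries and 62.2% and 56.7% in the scrambled libraries. With 2 libraries a group, an exact permutation test cannot give a two-sided p below 0.33, so shares were not tested.

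**Figure D3:**
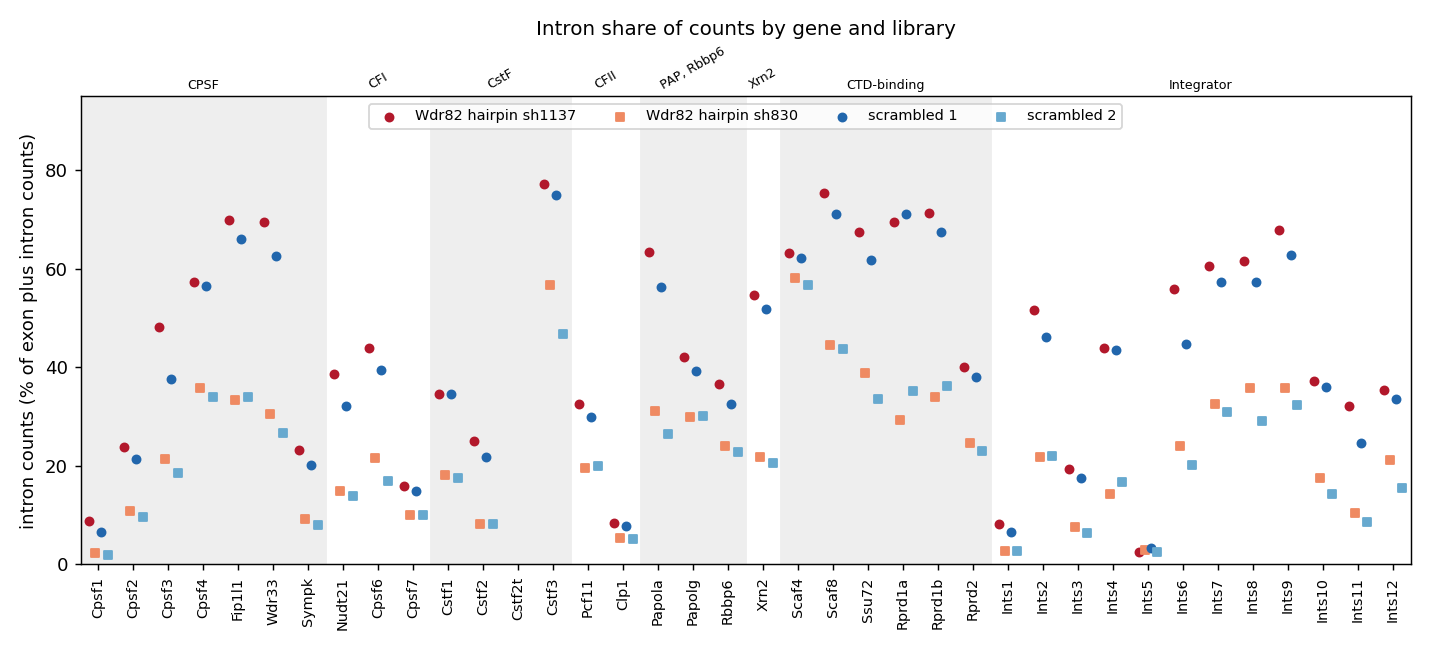
Intron counts as a percent of exon plus intron counts, per gene and library; circles are the intron-rich and squares the intron-poor libraries, red and orange the knockdown and blue the scrambled libraries. The intron-rich libraries lie above the intron-poor ones for nearly every gene, and pooled shares are 50.4% and 23.5% with knockdown, against 45.5% and 21.1% with the scrambled hairpin.

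Levels differed more between genes than between hairpins. Per kilobase of annotated exon, Xrn2 was highest with 48.5 and 57.4 CPM per kb in the knockdown libraries, against 53.4 and 69.1 CPM per kb in the scrambled libraries. Papola, Nudt21 and Sympk followed, with means over the 4 libraries of 44.8, 40.5 and 32.8 CPM per kb. Papolg was lowest with 4.04 and 3.11 CPM per kb in the knockdown libraries, against 4.13 and 3.11 CPM per kb in the scrambled libraries, and Ints6 was next with a mean of 4.10 CPM per kb. The highest mean was 15.9 times the lowest. The median level of the 38 genes was 12.8 CPM per kb, against 7.45 over all genes tested, and 32 of the 38 stood above that gene median. In the order of mean levels, 36 of 37 neighbouring pairs had ranges that overlapped over the 4 libraries. The 1 pair that stood apart was Ints9, at 5.20 and 5.18 CPM per kb in the knockdown libraries and 5.88 and 6.66 in the scrambled libraries, above Ints6, at 5.08 and 4.36 in the knockdown libraries and 3.36 and 3.60 in the scrambled libraries. Per kb, the paired Integrator subunits were unequal, with 25.6 for Ints11 and 5.73 for Ints9 as means over the 4 libraries. Cpsf3 and Cpsf2 had 19.7 and 21.0. These levels depend on annotated exon length, 2347 bases for Ints11 but 6808 for Ints9. Before division by length, Ints11 and Ints9 averaged 49.4 and 35.3 CPM with knockdown, and 71.0 and 42.7 CPM with the scrambled hairpin. Which annotated exons are used in these cells was not tested.

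**Figure D4:**
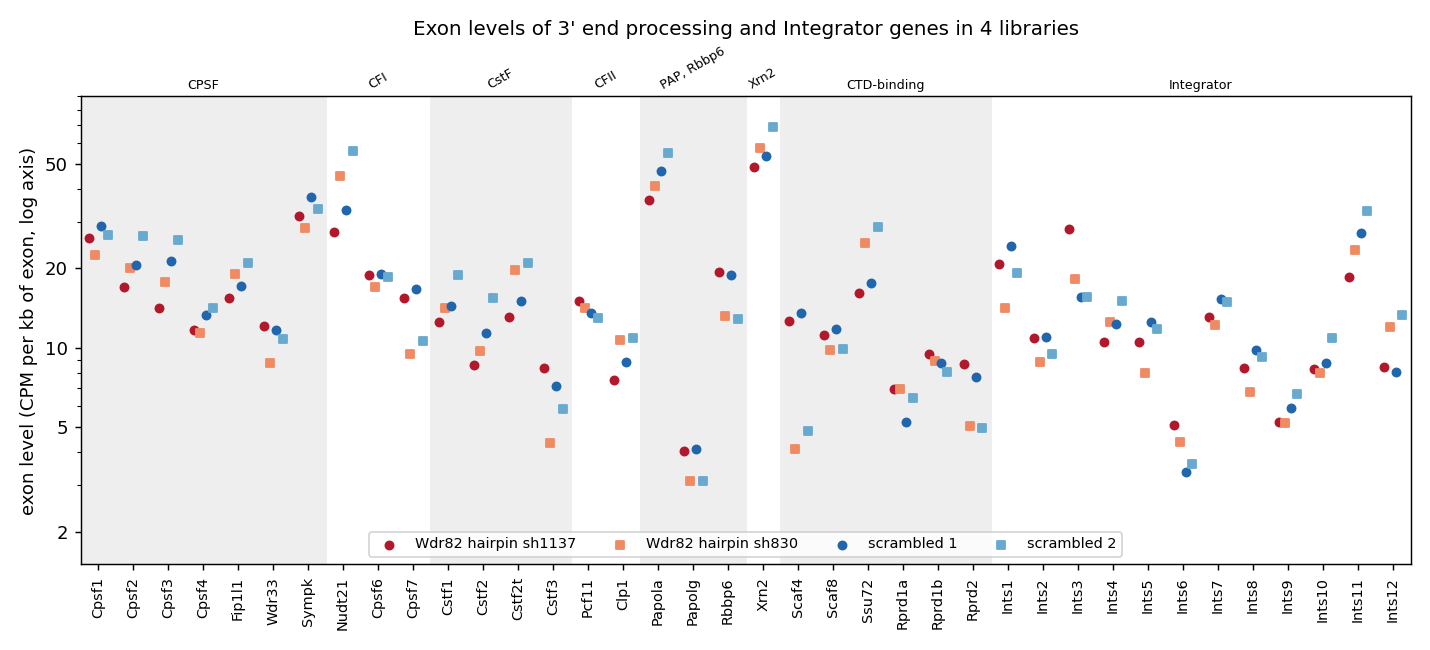
Exon level (CPM per kb of annotated exon, log axis) of each of the 38 genes in the 4 libraries, in order of complex; circles are intron-rich and squares intron-poor libraries, red and orange the knockdown and blue the scrambled libraries. Xrn2 is highest and Papolg lowest, and Scaf4 separates by kind of library.

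The authors' non-gene regions are transcribed stretches listed beside the genes in the exon counts. The annotation file credits them to a comparison of a hairpin with a control, so their direction is not independent evidence. Of 1068 regions tested, 545 (51%) were called higher with knockdown and 0 lower, and none carried the name of a gene of the list. The 1 region that met the distance rule of 20 kb beyond a gene end lies 18775 bases beyond the end of Cpsf7 and is named for the end of Tmem138 (mm9 chr19:10641000-10644999). It held 66 and 32 counts in the knockdown libraries, against 35 and 31 counts in the scrambled libraries, and did not pass (log2 fold change 0.52 ± 0.47 (SE), adjusted p = 0.48, edgeR). The distance rule was not applied to all genes, so it is not known whether 1 region is few for such a list.

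A further 38 genes of the same pathways were all tested, in 6 lists. The lists cover other Integrator subunits and partners, poly(A)-binding proteins, histone pre-mRNA processing, U1 snRNP proteins, termination cofactors and small nuclear RNA transcription. Over exons 1 was called higher and 2 lower, and over introns 2 higher and 1 lower. Among all genes, 5.57% were called higher and 7.45% lower over exons, and 8.21% higher and 7.17% lower over introns. The gene called higher over exons was Nabp1, the single-strand DNA-binding partner of Ints3 in the SOSS complex. It had 58.6 and 45.8 exon CPM in the knockdown libraries, against 26.5 and 22.4 CPM in the scrambled libraries, a log2 fold change of 1.09 ± 0.099 (SE; adjusted p = 0.0093, edgeR; 0.47 without the split term). Nabp1 was also called over introns, at 0.58 ± 0.15 (SE; adjusted p = 0.033, edgeR). The alternative SOSS subunit Nabp2 had a log2 fold change of -0.089 ± 0.11 and the third subunit Inip one of -0.19 ± 0.10 (SE), and neither passed (adjusted p = 0.61 and 0.25, edgeR). The other gene called higher over introns was Ints13, at 0.44 ± 0.11 (SE; adjusted p = 0.026, edgeR), with an exon change of 0.015 ± 0.12. Called lower over exons were Snrpa, a U1 snRNP protein, at -0.50 ± 0.11 (SE; adjusted p = 0.047, edgeR), and Eri1, an exonuclease that trims histone mRNA ends, at -0.37 ± 0.087 (SE; adjusted p = 0.049, edgeR). Called lower over introns was Cdkn2aipnl, at -0.49 ± 0.13 (SE; adjusted p = 0.035, edgeR), a homolog of the Xrn2-binding protein Cdkn2aip. The 2 genes of the PP2A core in the Integrator list, Ppp2ca and Ppp2r1a, had log2 fold changes of -0.25 ± 0.081 and -0.25 ± 0.081 (SE), and did not pass (adjusted p = 0.094 and 0.096, edgeR).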

How the data were processed

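Exon and intron counts per gene were deposited by the authors as whole numbers for 4 total RNA libraries, and exon files also hold 1107 non-gene regions. Build mm9 and the tools SICER, Cuffdiff 2.1.1, Cufflinks 2.1.1 and TopHat 1.3.1 are listed, with no roles, per the submitters' processing notes. The counting tool, its strand setting and its treatment of reads with several matches are not given in the sources used here, although the libraries were stranded per the labels. Of the 38 genes, 9 overlap another annotated gene.

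Groups came from the hairpin in the labels. Counts were tested with edgeR 4.0.16 (R 4.3.3): TMM factors, filterByExpr by group, a quasi-likelihood F-test with a term for group and a term for the intron-rich against the intron-poor libraries (1 residual degree of freedom), and Benjamini-Hochberg adjustment over all genes and regions with a threshold of 0.05. Over exons that adjustment pooled the genes with 1068 regions, of which 545 were called. This pooling can lower the adjusted p-values of genes and raise the share of genes called. An adjustment of exon results over genes alone was not run. Standard errors are the log2 fold change over the square root of F. Intron and exon changes were compared by an interaction term. CPM use TMM-scaled library sizes, and differences within a kind of library add 0.5 counts. The fits were tested on counts simulated with 1 fixed dispersion. Of true log2 changes of 0.5, 15% were recovered over exons, 8% over introns and 4% for introns against exons. Of true changes of 1, 85%, 90% and 24% were recovered. The group term alone recovered 0% over exons at either size. The simulated means were set within each kind of library, with no other library or hairpin effect. The simulation thus favours the split term by construction, and its rates are no evidence for that term. A gene that did not pass is thus not shown to be unchanged.

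Genes given library by library passed a test, held the highest or lowest change or level of their complex, or lay near a region. Scaf4 and Ints9 met none of these and were added after their values were seen, Scaf4 for its difference between kinds of library and Ints9 as the neighbour of Ints6 in level. The genes, the pathway and marker lists, the split term and this rule were all chosen with earlier results of these data known. DESeq2 1.42.0 was an alternative.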

Additional observations from a re-analysis of the deposited data

How the results depend on the processing

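No paired analysis was possible because the knockdown libraries carry no replicate number in the labels; the split term instead blocks the libraries by their measured intron share. Over exons, 770 genes were called higher and 1030 lower, and 0 and 4 of the 38. With the group term alone in edgeR, 0 genes and 0 of the listed genes were called in either direction, over exons, over introns or for introns against exons; the unadjusted p for introns against exons was under 0.05 in 42 genes above and 24 below. A split term crossed between the kinds (scrambled 1 with sh830) gave 28 genes higher and 2 lower over exons, 65 and 2 over introns, 0 and 0 for introns against exons, and 0 listed genes. DESeq2 with the group term alone gave 153 and 23 genes over exons, 158 and 8 over introns, and 0 listed genes. DESeq2 with the split term gave 746 genes higher and 898 lower over exons, with 1 listed gene higher (Ints3) and 4 lower. Over introns it gave 567 and 311 genes, with 1 listed gene higher (Ints6) and 0 lower. Without a filter on low counts, 925 genes were called higher and 1254 lower over exons. Ints6 (adjusted p = 0.049, edgeR) then made 1 listed gene higher, and Cpsf2 (adjusted p = 0.049, edgeR) joined the 4 called lower. For introns against exons, 182 and 162 genes were called without that filter. Exon plus intron counts gave 994 genes higher and 1403 lower. Of the listed genes, 1 was higher (Ints6) and 6 lower, with Cpsf2, Ints1 and Ints5 added and Papola lost (-0.28). Those summed counts also turned Cstf3 to 0.0487 and Scaf8 to 0.0069, and the cause was not tested. Factors from exon counts gave 246 genes lower over introns with 0 of the 37 lower, as Cstf2 and Ints4 no longer passed, and, for introns against exons, 414 genes higher and 45 lower with 2 listed genes higher. DESeq2 size factors gave 275 genes higher and 259 lower for introns against exons. Over exons they gave 664 genes higher and 998 lower, with 4 listed genes lower.

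Leaving out each library in turn, with the group term alone, gave 22 to 213 genes higher and 1 to 37 lower over exons, 41 to 210 and 4 to 40 over introns, 0 to 1 and 0 for introns against exons, and 0 listed genes. These fits leave the split unbalanced between hairpins. The log2 fold change over exons kept its sign for 23 of 38 genes, the 4 called genes, Ints3 and Ints6 among them, and changed sign for 15. Of the genes called over exons, Cpsf3 lay between -0.73 and -0.39, Ints11 between -0.71 and -0.35, Cstf2 between -0.73 and -0.32 and Papola between -0.48 and -0.27. Ints3 and Ints6, not called over exons, lay between 0.23 and 0.86 and between 0.33 and 0.54. Of those called over introns, Ints6 lay between 0.48 and 1.13, Ints3 between 0.33 and 0.95, Cstf2 between -0.62 and -0.43 and Ints4 between -0.69 and -0.29. The ranges of the 15 were -0.382 to 0.132 for Clp1, -0.539 to 0.24 for Cpsf7, -0.46 to 0.142 for Cstf2t, -0.584 to 0.357 for Cstf3, -0.303 to 0.0157 for Fip1l1, -0.361 to 0.342 for Ints12, -0.21 to 0.0904 for Ints2, -0.707 to 0.12 for Nudt21, -0.214 to 0.218 for Papolg, -0.269 to 0.355 for Rbbp6, -0.324 to 0.486 for Rprd2, -1.16 to 0.809 for Scaf4, -0.174 to 0.0988 for Scaf8, -0.52 to 0.222 for Ssu72 and -0.354 to 0.109 for Wdr33. The median over the 38 genes lay between -0.24 and -0.17 over exons, and that over the 37 genes between -0.19 and -0.018 over introns. Over introns Papola ran from -0.24 to 0.0016, and for introns against exons Rprd1a ran from -0.81 to 0.081 and Wdr33 from -0.17 to 0.65. With 2 libraries a group and 1 residual degree of freedom, the sizes of single changes are uncertain and the hairpins cannot be told apart from the libraries, while each listed gene held at least 517 exon counts in every library.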
